A study of Mus musculus with 46 samples.

Results

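Phgdh, Psat1, Psph, Shmt1, Shmt2, Asns and Atf4, the genes of serine and asparagine synthesis, were chosen by symbol. They are 7 of the 29871 listed genes. They were described over all 46 cells. The choice followed earlier results of these cells, in which Psat1 separated Otos cells from Ibsp cells, so the levels below are a description. Serine is made from the glycolytic intermediate 3-phosphoglycerate by phosphoglycerate dehydrogenase (Phgdh), phosphoserine aminotransferase (Psat1) and phosphoserine phosphatase (Psph). The serine hydroxymethyltransferases, cytosolic Shmt1 and mitochondrial Shmt2, turn serine into glycine and load a carbon unit onto folate. Asparagine synthetase (Asns) makes asparagine from aspartate, with glutamine as the nitrogen donor. ATF4 is a transcription factor whose protein is made mainly when initiation factor eIF2 is phosphorylated, and in mammalian cells it activates many amino acid synthesis genes, Asns among them. Because ATF4 is controlled largely at translation, its mRNA level is not a measure of its activity.

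The data were RNA-seq profiles of 46 single cells from cochleae of C57BL/6 mice at postnatal day 10. The mice were heterozygous for Dio2-CreERt2 and carried Ai6, a reporter that makes cells fluorescent once Cre has acted in them or in an ancestor. Cochleae were treated with papain, and fluorescent cells were picked singly with a suction pipette for full-length cDNA libraries. The study set out to define the cochlear cell types that express Dio2, the gene of the deiodinase that makes active thyroid hormone. Fluorescence marks cells by the activity of the Dio2 promoter at the time of Cre action, not by their Dio2 mRNA at picking. All cells carry the same labels and no animal is named, so they form 1 sample, and differences between cells have no replicate check and no test.

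Cells were placed in classes by 3 genes. Otos encodes otospiralin of cochlear fibrocytes, and 9 cells had it at 1000 CPM (reads per 1000000 reads) or more. Ibsp encodes bone sialoprotein of osteoblasts, and 12 cells had it at 1000 CPM or more. C1qb encodes a complement chain of macrophages, and 4 cells had it at 500 CPM or more. No cell met more than 1 limit, and 21 cells met none. The values nearest each limit were far apart, at 1213 CPM inside and 112 CPM outside for Otos, 7618 and 107 CPM for Ibsp, and 3048 and 148 CPM for C1qb.

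The classes carried the markers of these types. Of 8 fibrocyte markers, 7 or 8 were at 100 CPM or more in each Otos cell. Of 9 osteoblast markers, 5 to 9 were at that level in each Ibsp cell, and of 7 macrophage markers, 6 or 7 in each C1qb cell. Each set includes the gene that defined the class, so 1 marker in each count was fixed in advance. The fibrocyte markers Coch, Car3 and Pou3f4 were also at that level in 12, 11 and 12 of the 12 Ibsp cells. The classes were not free of other markers. Otos cells also held 2 to 5 of 6 chondrocyte and 2 to 4 of 6 general fibroblast markers, and Ibsp cells 2 to 4 of 8 fibrocyte markers. In all, 8 of 9 Otos and 11 of 12 Ibsp cells held 3 or more markers of another type, and their part in the results was not tested. The remaining cells held 0 to 6 fibrocyte and 0 to 4 osteoblast markers and are not a cell type. Glial markers summed to 96.4 to 19306 CPM in Otos cells, 6.06 to 360 CPM in Ibsp cells, 5.86 to 1135 CPM in C1qb cells and 5.65 to 1571 CPM in the remaining cells. In Otos cells that sum was mostly S100b, which had a median of 9379 CPM there. Reads in listed genes numbered 2522853 to 10350249 per cell, and 3351 to 7143 genes reached 1 CPM. Outside their own class, Otos, Ibsp and C1qb had medians of 31.2, 27.6 and 0.812 CPM, which is 0.139%, 0.0975% and 0.0211% of the median inside. Values well under 1 CPM, a few reads, are therefore not read as expression. The numbers of the cells followed the classes, with cells 1 to 12 all in the Ibsp class and cells 43 to 46 all in the C1qb class. The labels do not say what set these numbers, and whatever did cannot be told apart from class.

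The 7 genes were either clearly present or close to absent in single cells. Of their 322 values, 62.7% were under 1 CPM, 3.11% between 1 and 10 CPM and 34.2% at 10 CPM or more. A limit of 10 CPM is therefore used below to call a gene present in a cell. Over the 8526 genes compared between Otos and Ibsp cells, the same shares were 49.0%, 6.10% and 44.9%.

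**Figure D1:**
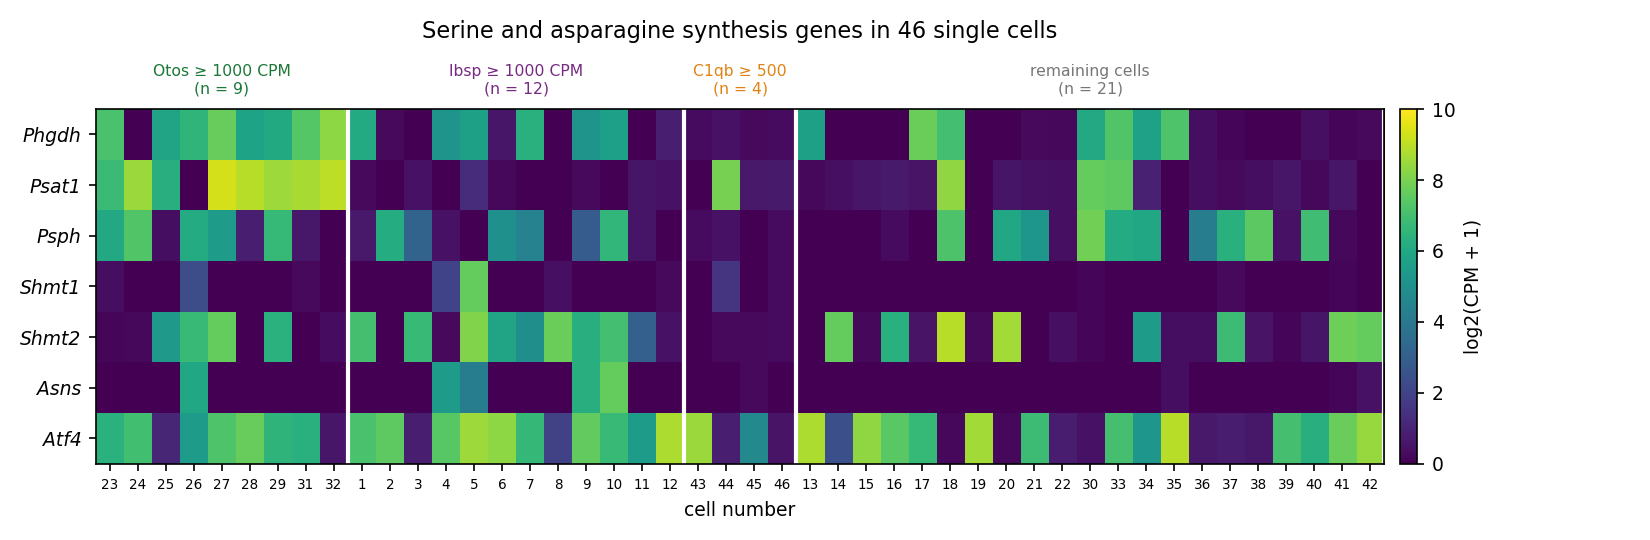
Level of each of the 7 genes in each of the 46 cells, as log2(CPM + 1), with cells grouped as Otos, Ibsp, C1qb and remaining cells. Psat1 is present in 8 of 9 Otos cells and in no Ibsp cell, Asns is present in 4 Ibsp cells and 1 Otos cell, and most other entries are near 0 or well above it.

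Upstream sequence is shown for Phgdh and Psat1, the genes that differed most between Otos and Ibsp cells, and for Asns, a textbook ATF4 target. All 5 cells with Asns also had Atf4, but Atf4 was present in 32 of 46 cells, so nothing is read from that overlap. The windows are the 250 bases before the annotated gene start on the minus strand of GRCm38.p6, from RefSeq. Capitals mark matches on either strand to TGATGNAA, the core of the element bound by ATF4 with C/EBP proteins, or to CCAAT, the box bound by NF-Y.
Asns (chr6:7693210-7693459): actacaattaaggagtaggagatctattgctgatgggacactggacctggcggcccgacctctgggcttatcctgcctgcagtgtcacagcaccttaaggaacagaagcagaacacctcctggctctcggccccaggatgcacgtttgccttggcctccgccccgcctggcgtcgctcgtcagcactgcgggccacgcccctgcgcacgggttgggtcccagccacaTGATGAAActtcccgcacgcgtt
Psat1 (chr19:15925060-15925309): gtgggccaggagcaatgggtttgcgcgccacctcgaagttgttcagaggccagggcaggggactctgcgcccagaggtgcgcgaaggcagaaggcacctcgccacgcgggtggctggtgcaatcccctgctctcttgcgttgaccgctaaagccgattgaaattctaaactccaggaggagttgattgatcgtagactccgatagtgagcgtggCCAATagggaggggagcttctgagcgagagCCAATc
Phgdh (chr3:98339970-98340219): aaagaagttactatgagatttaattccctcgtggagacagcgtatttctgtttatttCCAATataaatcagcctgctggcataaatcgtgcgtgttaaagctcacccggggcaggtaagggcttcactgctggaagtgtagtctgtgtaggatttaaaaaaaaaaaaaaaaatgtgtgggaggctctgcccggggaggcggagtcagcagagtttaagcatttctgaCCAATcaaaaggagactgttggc
The Asns window held 1 match to TGATGNAA, the letters TGATGAAA, which began 23 bases before the gene start. Such a match was present in 1134 of 32851 promoter windows of the same length (3.45%) and in none of the windows of the other 6 genes. CCAAT matched at 6 and 36 bases before the start of Psat1 and at 23 and 193 bases before the start of Phgdh, and 33.8% of all windows held that box. It also matched 2 times each in the windows of Psph and Atf4 and 1 time in that of Shmt1, so it does not separate these genes. The Psph window, 129787254 to 129787503, lies partly within the gene as annotated, which runs to 129787443. RefSeq lists a second start for Psat1, whose window held neither motif. These are letter matches only, and sequence outside the 250 bases was not searched. A window without a TGATGNAA match is therefore not read as a gene without ATF4 control.

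Phgdh (NCBI Gene 236539, chromosome 3, 98313171 to 98339969) encodes the enzyme of the first and committed step of serine synthesis. It was present in 8 of 9 Otos cells (88.9%, exact 95% interval 51.8% to 99.7%), 6 of 12 Ibsp cells (50%, 21.1% to 78.9%), 0 of 4 C1qb cells (up to 60.2%) and 7 of 21 remaining cells (33.3%, 14.6% to 57.0%). The lowest, median and highest values were 0, 93.0 and 316 CPM in Otos cells, 0, 18 and 80.8 CPM in Ibsp cells, and 0, 0.191 and 214 CPM in the remaining cells. The ranges overlapped, but 4 Otos cells and no Ibsp cell were at 100 CPM or more. In the Otos class only cell 24 lacked Phgdh, and that cell had Psat1 and Psph at 360 and 155 CPM. Besides 7 fibrocyte markers, cell 24 held 2 glial, 2 pericyte and 2 stria or melanocyte markers at 100 CPM or more. Mean log2(CPM + 1) was 6.09 ± 2.44 in Otos cells (SD, n = 9), 2.99 ± 2.86 in Ibsp cells (SD, n = 12) and 2.31 ± 3.20 in the remaining cells (SD, n = 21). The difference between Otos and Ibsp cells was 3.09, larger than the pooled SD over cells of 2.69, and that between Otos and the remaining cells was 3.77. With a pseudocount of 10 these differences were 1.92 and 2.07. Mouse Phgdh has a processed pseudogene, Phgdh-ps1, and how reads shared with it were assigned is not given in the sources used here.

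Psat1 (NCBI Gene 107272, chromosome 19, 15905123 to 15925059) encodes the second enzyme, which transfers an amino group from glutamate. Its 9 values in Otos cells ran from 0 CPM in cell 26 to 651 CPM in cell 27, with a median of 375 CPM, and the 8 cells that had it were at 77.8 CPM or more. In the 12 Ibsp cells the lowest, median and highest values were 0, 0.183 and 1.39 CPM, or 13 reads in all. Psat1 was thus present in 88.9% of Otos cells (51.8% to 99.7%) and in 0 of 12 Ibsp cells (up to 26.5%). The ranges thus overlapped through cell 26, while the other 8 Otos cells lay above every Ibsp cell. The share of all genes that part these classes in this way is not given here. Over pooled reads the level was 352 CPM in Otos cells (exact Poisson 95% interval 347 to 357) and 0.237 CPM in Ibsp cells (0.126 to 0.405), intervals that cover counting error only. Mean log2(CPM + 1) was 7.35 ± 2.94 in Otos cells (SD, n = 9) and 0.29 ± 0.37 in Ibsp cells (SD, n = 12). The difference of 7.06 stood at percentile 99.6 of the 8526 genes compared, and was 4.41 with a pseudocount of 10. Psat1 was chosen with its separation of these cells known, so nothing is read from that rank.

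Elsewhere Psat1 was rare. Of the 21 remaining cells, 3 had it (14.3%, 3.05% to 36.3%), with 320, 197 and 182 CPM in cells 18, 30 and 33. The other 18 were at 0.901 CPM or less, and the class difference between Otos and the remaining cells was 5.89, and 3.75 with a pseudocount of 10. Cells 18, 30 and 33 held 4, 6 and 6 of the 8 fibrocyte markers, with the matrix gene Coch at 97304, 12697 and 13309 CPM but Otos at only 30.5, 56.4 and 55.9 CPM. Among C1qb cells, Psat1 was at 244 CPM in cell 44 and at 0, 0.606 and 0.648 CPM in cells 43, 45 and 46. Read depth differed a little between classes, with median reads in listed genes of about 5081200 in Otos cells and 4507830 in Ibsp cells. After thinning to 3816760 reads per cell, Psat1 was still present in 8 of 9 Otos cells and 0 of 10 Ibsp cells.

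Psph (NCBI Gene 100678, chromosome 5, 129765558 to 129787443) encodes the phosphatase of the last step. It was found at overlapping levels in Otos, Ibsp and remaining cells. Psph was present in 5 of 9 Otos cells (55.6%, 21.2% to 86.3%), 4 of 12 Ibsp cells (33.3%, 9.92% to 65.1%), 0 of 4 C1qb cells and 10 of 21 remaining cells (47.6%, 25.7% to 70.2%). The lowest, median and highest values were 0, 44.5 and 155 CPM in Otos cells, 0, 3.6 and 97.1 CPM in Ibsp cells, and 0, 0.388 and 234 CPM in the remaining cells. These ranges overlap almost fully. The difference of mean log2(CPM + 1) between Otos and Ibsp cells was 1.22, against a pooled SD of 2.81. The difference of medians was larger, at 3.71, close to the 3.54 of Phgdh.

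Of the 7 genes, 6 entered the comparison of Otos with Ibsp cells and 2, Psat1 and Phgdh, were higher in Otos cells by 2 log2 units or more. Of all genes that entered, 11.6% were that much higher. None of the 6 was lower by that size, against 13.3% of all genes. The median difference of the 6 was 0.08 log2 units, and that of all genes was -0.25. Between Otos and the remaining cells the same 2 of 5 genes were higher, where 9.01% of all genes were, and none was lower, against 6.41% of all genes. The choice of the genes used these cells, so nothing is read from these shares.

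**Figure D2:**
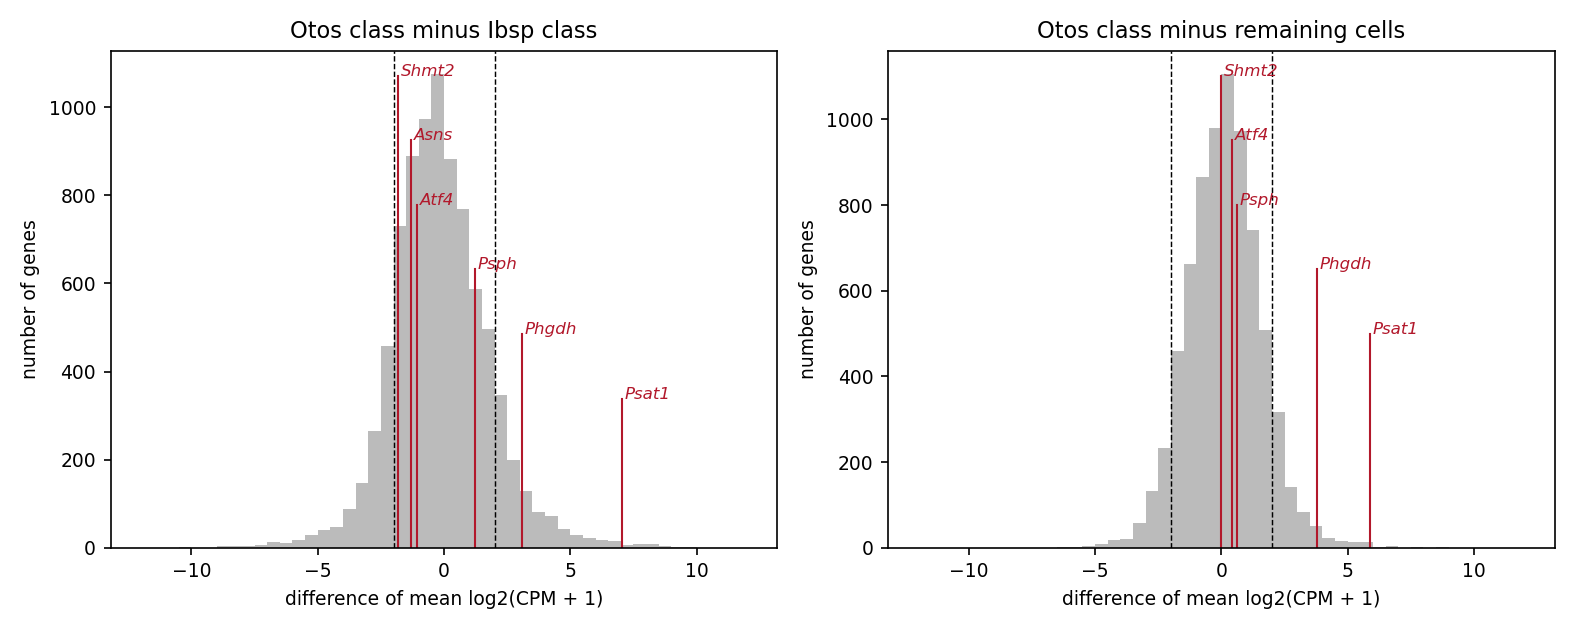
Number of genes (grey bars) by difference of mean log2(CPM + 1), for Otos minus Ibsp cells and for Otos minus the remaining cells, with red lines at those of the 7 genes that entered and dashed lines at -2 and 2. Line heights carry no value. Psat1 (7.06 and 5.89) and Phgdh (3.09 and 3.77) lie beyond 2 in both panels, and the other red lines lie between -2 and 2.

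**Figure D3:**
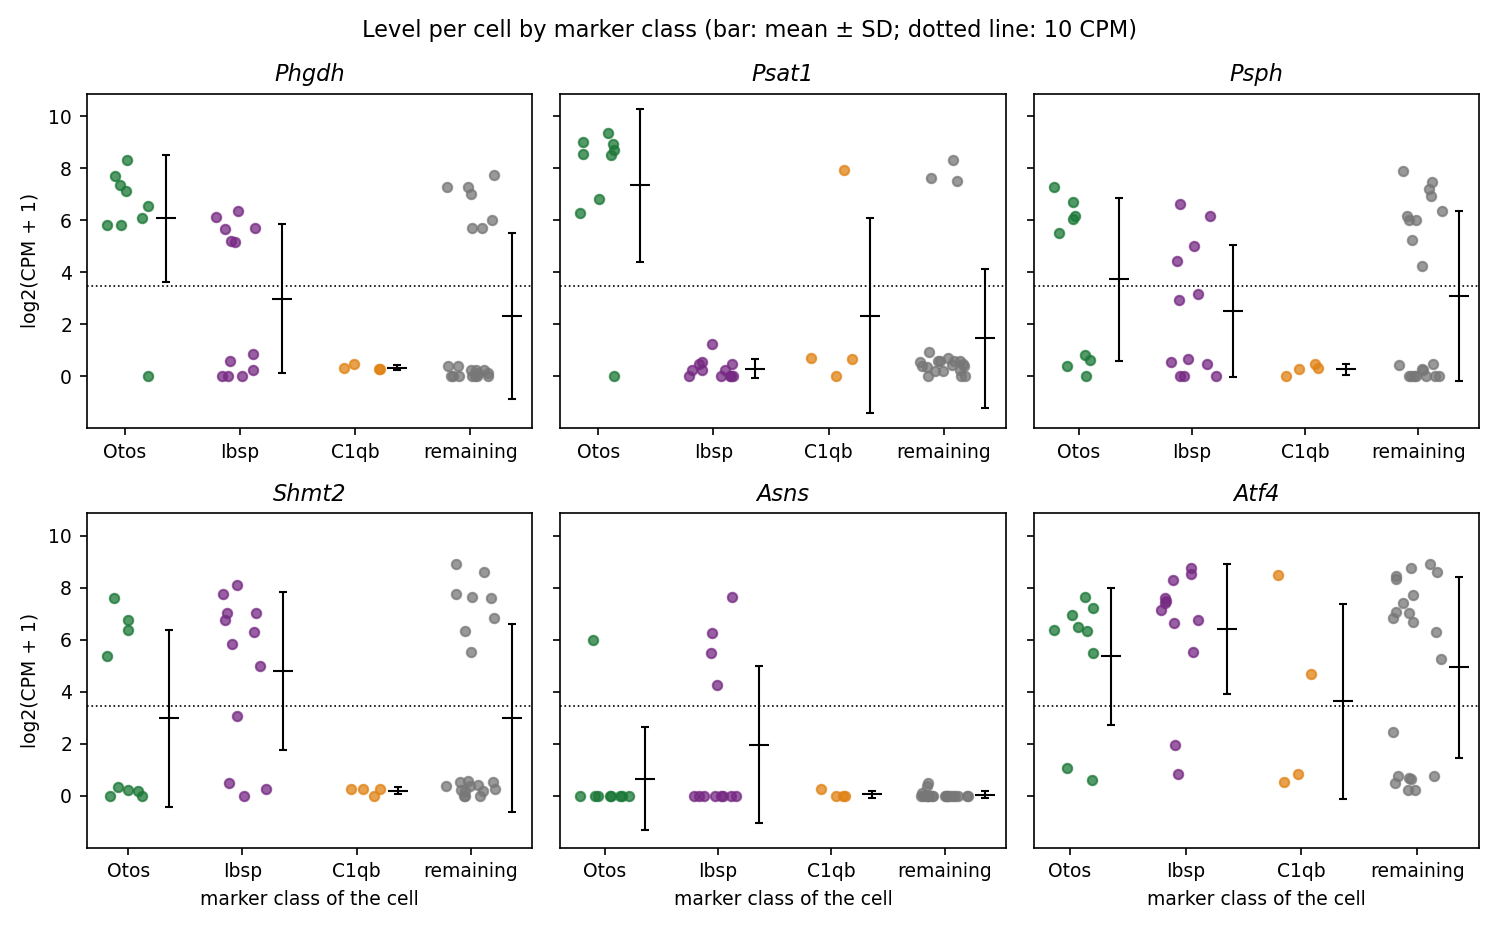
log2(CPM + 1) of 6 of the 7 genes, 1 point per cell, in Otos (n = 9), Ibsp (n = 12), C1qb (n = 4) and remaining cells (n = 21), with bars for the mean ± SD over cells and a dotted line at 10 CPM. Shmt1, present in 1 cell, is not drawn. Psat1 averages 7.35 in Otos cells and 0.29 in Ibsp cells, while Psph and Atf4 overlap between these classes.

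Taken jointly, as the mean of log2(CPM + 1) over Phgdh, Psat1 and Psph, the serine enzymes separated Otos from Ibsp cells without overlap. Psat1 was chosen with its separation of these classes known, so this separation is partly built in. Phgdh and Psph each overlapped between the classes. The lowest, median and highest joint levels were 4.17, 5.57 and 7.52 in Otos cells, 0, 2.05 and 4.09 in Ibsp cells, and 0, 1.99 and 7.52 in the remaining cells. The means were 5.72 ± 1.18 in Otos cells (SD, n = 9), 1.93 ± 1.26 in Ibsp cells (SD, n = 12) and 2.29 ± 2.37 in the remaining cells (SD, n = 21). Otos cells thus lay 3.79 log2 units above Ibsp cells and 3.43 above the remaining cells. Of the remaining cells, 34, 33 and 30 lay within the Otos range, with joint levels of 4.22, 6.99 and 7.18, and cell 18 lay just above its top at 7.524. The gap between the lowest Otos and the highest Ibsp cell was narrow, and Psat1 carried most of the class difference.

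Counted per cell, every Otos cell had at least 2 of the 3 enzymes. Of the 9 Otos cells, 6 had 2 enzymes and 3 had all 3. Of the 12 Ibsp cells, 4 had none, 6 had 1 and 2 had 2. Of the 21 remaining cells, 8 had none, 9 had 1, 1 had 2 and 3 had all 3. The complete set was found in 6 cells (18, 23, 27, 29, 30 and 33), of which 3 were Otos cells and 3 remaining cells, and in no Ibsp or C1qb cell. Phgdh and Psat1 were present together in 10 cells, 7 of them Otos cells.

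Shmt2 (NCBI Gene 108037, chromosome 10, 127517123 to 127522444), the mitochondrial enzyme that consumes serine, was found more often in Ibsp cells. The gene was present in 4 of 9 Otos cells (44.4%, 13.7% to 78.8%), 8 of 12 Ibsp cells (66.7%, 34.9% to 90.1%), 0 of 4 C1qb cells and 8 of 21 remaining cells (38.1%, 18.1% to 61.6%). The lowest, median and highest values were 0, 0.271 and 197 CPM in Otos cells, 0, 66.6 and 273 CPM in Ibsp cells, and 0, 0.433 and 483 CPM in the remaining cells. The intervals of these shares overlap widely. The mean log2 difference was -1.81 between Otos and Ibsp cells and 1.80 between Ibsp and the remaining cells, each within a pooled SD of 3.20 and 3.42. Both lay close to the size of 2. With a pseudocount of 10 they were -0.93 and 0.82. Leaving out 1 of cells 2, 4, 12, 25, 26, 27 or 29 took the first to between -2.39 and -2.11, and leaving out 1 of cells 2, 4, 12, 14, 18, 20, 41 or 42 took the second to between 2.04 and 2.24. The lowest sizes were -1.44 without cell 31 and 1.51 without cell 5. On medians the differences were -5.71 and 5.54. Shmt2 was present without any of the 3 serine enzymes in 6 cells, 2 of them Ibsp cells and 4 of them remaining cells.

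Shmt1 (NCBI Gene 20425, chromosome 11, 60788897 to 60811265), the cytosolic counterpart, was present in 1 cell of 46. That was Ibsp cell 5, at 200 CPM, which also had Shmt2 at 273 CPM. The highest value in any other cell was 4.19 CPM, in Otos cell 26. Shmt1 entered none of the comparisons for lack of cells.

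Asns (NCBI Gene 27053, chromosome 6, 7675165 to 7693209), the asparagine enzyme whose upstream window carries the TGATGAAA match above, was present in 5 cells. These were Otos cell 26 at 62.4 CPM and Ibsp cells 4, 5, 9 and 10 at 44.7, 18, 76.6 and 199.6 CPM. It was at 0 CPM in the other 8 Otos and the other 8 Ibsp cells and at 0.397 CPM or less in all C1qb and remaining cells. As shares these are 11.1% of Otos cells (0.281% to 48.2%), 33.3% of Ibsp cells (9.92% to 65.1%) and 0 of 21 remaining cells (up to 16.1%). At a limit of 100 CPM only 1 Ibsp cell had it. After thinning, 3 of 10 Ibsp cells did.

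The difference of mean log2(CPM + 1) for Asns was -1.31 between Otos and Ibsp cells and 1.93 between Ibsp and the remaining cells. The second became 2.11 when any 1 of Ibsp cells 1, 2, 3, 6, 7, 8, 11 or 12 was left out and 1.41 without cell 10. It was 0.95 with a pseudocount of 10 and 0 on medians. All 5 cells with Asns also had Phgdh and Atf4, and 4 of them had Shmt2. None had Psat1. Over all 46 cells Phgdh was present in 21 and Atf4 in 32. Cell 26 was the only Otos cell with Asns and the only one without Psat1. It had Phgdh at 93.0 CPM, Psph at 71.0 CPM and Shmt2 at 106 CPM. Cell 26 also held 7 fibrocyte, 5 chondrocyte and 2 osteoblast markers at 100 CPM or more, with the osteoblast marker Dmp1 at 4677 CPM. Its 3522422 reads in listed genes were the fewest of the Otos class. The part of these in its levels was not tested.

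Atf4 (NCBI Gene 11911, chromosome 15, 80255184 to 80257545, plus strand), the regulator, was the most widely present of the 7, in 32 of 46 cells (69.6%, 54.2% to 82.3%). It was present in 7 of 9 Otos, 10 of 12 Ibsp, 2 of 4 C1qb and 13 of 21 remaining cells. The lowest, median and highest values were 0.542, 83.2 and 201 CPM in Otos cells, 0.798, 154 and 435 CPM in Ibsp cells, and 0.162, 102 and 479 CPM in the remaining cells. These ranges overlap. The mean log2 difference was -1.05 between Otos and Ibsp cells and 1.48 between Ibsp and the remaining cells, smaller than the pooled SDs of 2.57 and 3.17. None of the 7 genes passed 2 log2 units between Ibsp and the remaining cells, where 8.75% of all genes were that much higher and 6.25% that much lower.

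In the 4 C1qb cells Phgdh, Psph and Shmt2 were close to absent. Phgdh was at 0.233, 0.387, 0.202 and 0.216 CPM in cells 43, 44, 45 and 46. Shmt2 was at 0, 0.194, 0.202 and 0.216 CPM and Psph at 0.233, 0.387, 0 and 0.216 CPM in the same cells. Each of these values is 0 to 2 reads. Atf4 was at 360 CPM in cell 43 and 25.1 CPM in cell 45, and at 0.775 and 0.432 CPM in cells 44 and 46. Cell 46 had none of the 7 genes, as did cell 22 of the remaining cells.

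Against the 42 other cells, 3 of 5 genes that entered were lower in C1qb cells by 2 log2 units or more, where 17% of all genes were. These 3, Phgdh, Psph and Shmt2, were present in no C1qb cell and entered only through the other cells. Nothing is therefore read from that share. The differences were -3.31 for Shmt2, -2.98 for Phgdh and -2.80 for Psph, and with a pseudocount of 10 they were -1.80, -1.63 and -1.41. The difference was -1.82 for Atf4 and ran from -3.44 without cell 43 to -0.78 without cell 46. For Psat1 it was -0.06 and ran from -1.92 without cell 44 to 0.72 without cell 43, so it has no stable sign. Cell 43 also held 3 fibrocyte markers at 100 CPM or more. The joint serine enzyme level was 0.98 ± 1.33 in C1qb cells (SD, n = 4), a difference of -1.95 from the other cells, with -2.61 without cell 44 and -1.69 without cell 43. These cells also differed in stress genes, since immediate early and heat shock genes summed to 20986 to 33138 CPM in C1qb cells, 37.2 to 2774 CPM in Otos cells, 176 to 25947 CPM in Ibsp cells and 17 to 40702 CPM in the remaining cells. The part of this in the levels of the 7 genes was not tested.

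Per length of exon, and over the cells that had each gene, the order of levels was Psat1 (116 CPM per kb), Atf4 (84.1), Shmt1 (70.0, 1 cell), Shmt2 (53.0), Psph (41), Phgdh (36.3) and Asns (28.8). Each neighbour in this order overlapped the next in its range over cells, so the order is one of medians. As a mean over all 46 cells the order was another one, with Atf4 at 78 CPM per kb, Shmt2 at 30, Psat1 at 29.2, Phgdh at 25.7, Psph at 21.3, Asns at 4.04 and Shmt1 at 1.6. Lengths are exon unions of the GENCODE M21 annotation.

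Over the 46 cells the ranks of the 7 genes were only loosely related. These ranks include the 62.7% of values under 1 CPM, so they partly reflect a few reads. Spearman's rank correlation had a median of 0.04 over the 21 pairs. Phgdh and Psat1 gave 0.28 (Pearson's r of log2 values 0.49), and 0.13 after class medians were subtracted. By presence, 10 of the 12 cells with Psat1 also had Phgdh, which was present in 21 of 46 cells. The most negative pairs were Psph with Atf4 at -0.38 and Psat1 with Asns at -0.34, and the most positive was Asns with Atf4 at 0.31. Asns was present in only 5 cells, so both of its values rest mostly on cells that lacked it. Psph with Atf4 was 0.50 within Otos cells, -0.16 within Ibsp cells and -0.74 within the remaining cells. Asns with Atf4 was -0.27, 0.23 and 0.50 in the same classes, and the first of these rests on the 1 Otos cell with Asns. The last rests on values of 0.397 CPM or less, since no remaining cell had Asns, and is not read. The 46 cells share 1 preparation and differ in class and depth. The rank correlation with the number of reads was 0.37 for Psat1 and -0.31 for Asns, and the part of depth in the pairs was not tested. With Dio2 the joint serine enzyme level gave 0.05, and Shmt2 gave 0.36.

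Of 6985 genes present in at least 10 cells, those most like the joint serine enzyme level by rank correlation were Hhatl (0.61), Ggact (0.59), Plekhb1 (0.57), Nat8f1 (0.55) and Sorbs2 (0.54). All had medians of 136 CPM or more in Otos cells and under 2 CPM in each of the other classes. Hhatl was present with Psat1 in 10 of the 12 cells that had Psat1. After class medians were subtracted, the 5 were Utp6 (0.59), S1pr1 (0.57), Rab10os (0.52), Mib1 (0.52) and Setdb1 (0.52), so none of the first 5 remained. Rab10os is a noncoding gene named for lying opposite Rab10, and reads of such pairs cannot be told apart without strand. For Asns they were Riok1 (0.57), Sap25 (0.53), Synj1 (0.51), Kmt2d (0.50) and Gga2 (0.49). After class medians were subtracted they were Sap25 (0.56), Riok1 (0.55), Vapa (0.51), Nid1 (0.49) and Kmt2d (0.48). Asns was present in only 5 cells, so most of its ranks are ties at 0.

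The genes around the serine pathway were described from lists chosen with earlier results of these cells known. A gene present in only 1 class entered through that class alone and was all but bound to be higher there. The list counts below are therefore descriptions, and nothing is read from them. Of 18 listed glycolysis genes, which lead to and from 3-phosphoglycerate, 16 entered the comparison of Otos with Ibsp cells, 6 were higher in Otos cells by 2 log2 units or more and none was lower, where 11.6% and 13.3% of all genes were. Their median difference was 1.66, beside -0.25 over all genes. The glucose transporter gene Slc2a1 differed by 5.58, with lowest, median and highest values of 0, 161 and 353 CPM in Otos cells and 0, 0.197 and 1.39 CPM in Ibsp cells. It was present in 7 of 9 Otos and 0 of 12 Ibsp cells. The lactate dehydrogenase gene Ldhb differed by 4.30 and was present in 9 of 9 Otos and 10 of 12 Ibsp cells, with medians of 866 CPM in Otos and 36.1 CPM in Ibsp cells. Bpgm, whose enzyme makes 2,3-bisphosphoglycerate, differed by 3.68, and the aldolase gene Aldoc by 3.57. Against the remaining cells, 5 of the 16 were higher in Otos cells and none was lower, where 9.01% and 6.41% of all genes were. The median was 1.07, beside 0.14 over all genes.

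Of 17 listed transport genes for serine, glycine and other neutral amino acids, 10 entered, 4 were higher in Otos than in Ibsp cells and 2 were lower, with a median of 1.41. The shares over all genes were again 11.6% and 13.3%, as for each list in this comparison. Slc7a8, whose protein exchanges neutral amino acids, differed by 5.74. Its lowest, median and highest values were 21.1, 141 and 230 CPM in Otos cells and 0, 0.345 and 115 CPM in Ibsp cells. It was also present in all 4 C1qb cells, which stood 5.02 log2 units above the other cells. Sfxn1, the carrier that brings serine into mitochondria, differed by 3.98 and was present in 9 of 9 Otos and 5 of 12 Ibsp cells, with medians of 124 CPM in Otos and 1.72 CPM in Ibsp cells. Its paralog Sfxn3 differed by -2.99, with medians of 0.419 CPM in Otos and 93.6 CPM in Ibsp cells. Slc38a3, a glutamine transporter gene, differed by 2.84 and was present in 4 Otos cells and no Ibsp cell.

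Of 20 listed genes of folate carbon metabolism and glycine cleavage, 9 entered, 1 was higher in Otos than in Ibsp cells and 1 was lower, with a median of 0.81. These counts are near the shares of 11.6% and 13.3% over all genes. Aldh1l1, which oxidises formyl-folate, differed by 2.50 and was present in 4 Otos cells and no Ibsp cell. Slc25a32, the mitochondrial folate carrier gene, differed by -2.40. Mthfd2, the mitochondrial partner of Shmt2 in this pathway, was present in 3 Otos, 3 Ibsp, 1 C1qb and 2 remaining cells.

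Of 19 listed genes that use or break down serine, 13 entered, 3 were higher and 1 was lower, with a median of -0.06. The 3 were Sptssa (2.45) and Sptlc2 (2.36) of serine palmitoyltransferase, which starts sphingolipid synthesis, and Cbs (2.00) of transsulfuration. The lower one was Sars2 (-2.73), the mitochondrial seryl-tRNA synthetase. In C1qb cells 1 of 12 genes of this list was higher than in the other cells and 4 were lower, beside 18% and 17% of all genes. Serinc3, a serine incorporator family gene, differed by 2.54, and the lowest were Ptdss2 (-3.57), which makes phosphatidylserine, and the serine racemase gene Srr (-3.55). Ptdss2 and Srr were present in no C1qb cell and entered only through the other cells, so nothing is read from the share that was lower.

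The aspartate, glutamate and proline list split between the classes. Of 19 genes 14 entered, 4 were higher in Otos cells and 4 were lower, with a median of 1.16. Pycr1, which makes proline, differed by -5.07. It was present in 0 of 9 Otos, 9 of 12 Ibsp, 0 of 4 C1qb and 1 of 21 remaining cells, with lowest, median and highest values of 0, 0 and 0.309 CPM in Otos cells and 0, 83.4 and 360 CPM in Ibsp cells. The glutamate dehydrogenase gene Glud1 differed by -3.13, with medians of 0.838 CPM in Otos and 122 CPM in Ibsp cells. On the other side Bcat2, a mitochondrial aminotransferase of branched-chain amino acids, differed by 4.89, with medians of 122 CPM in Otos and 1 CPM in Ibsp cells. Oat, the ornithine aminotransferase gene, differed by 3.38. In C1qb cells the aspartate aminotransferase gene Got1 stood 4.76 above the other cells.

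Of 22 listed genes known as ATF4 targets outside amino acid synthesis, 11 entered the comparison of Otos with Ibsp cells, 2 were higher and 6 were lower, where 11.6% and 13.3% of all genes were. Their median was -2.03. Pck2, the mitochondrial carboxykinase gene, differed by -5.63. It was present in 1 of 9 Otos and 10 of 12 Ibsp cells, with medians of 0.184 CPM in Otos and 202 CPM in Ibsp cells. Vldlr, a lipoprotein receptor gene, differed by -4.79 and was present in 0 Otos and 8 Ibsp cells. Nupr1, a stress-induced chromatin protein gene, differed by -3.37. Cebpb, a C/EBP transcription factor gene, went the other way with 3.77.

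Of 12 aminoacyl-tRNA synthetase genes of the ATF4 set, all entered, 5 were lower in Otos cells and none was higher, with a median of -1.46. They included Iars (-3.15), Cars (-2.70), Gars (-2.62) and Vars (-2.47). Against the remaining cells, Ibsp cells were higher in 3 of 12 target genes and lower in 2, with a median of 0.50. They were higher in 3 of 12 synthetase genes and lower in none, with a median of 1.02. Over all genes 8.75% were higher and 6.25% lower in this comparison, with a median of 0.32. Vldlr (4.36) and Pck2 (4.12) led the targets, and Iars (3.12) and Vars (2.86) the synthetases.

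Of 16 listed eIF2 kinases and upstream regulators, 11 entered, 1 was higher in Otos than in Ibsp cells and 2 were lower, with a median of -0.78. Tsc22d3, a glucocorticoid-induced gene, differed by 3.77, the growth regulator Myc by -4.25 and the eIF2 kinase gene Eif2ak1 by -2.56. Immediate early and heat shock genes, which respond to handling, moved with these lists. Of 10 listed, 8 entered, none was higher in Otos cells and 7 were lower, with a median of -2.95, Fos at -5.01 and Jun at -3.72. Their summed level had a median of 671 CPM in Otos cells and 2547 CPM in Ibsp cells. Their part in the ATF4 lists was not tested. Against the remaining cells Otos cells were again lower in 7 of 8, while Ibsp cells were neither higher nor lower in any of 9. Over all genes 6.41% were lower in Otos than in the remaining cells, and 8.75% were higher and 6.25% lower in Ibsp cells. Of 8 widely used genes, 1, B2m (2.24), differed by 2 or more between Otos and Ibsp cells, with a median of -0.19.

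**Figure D4:**
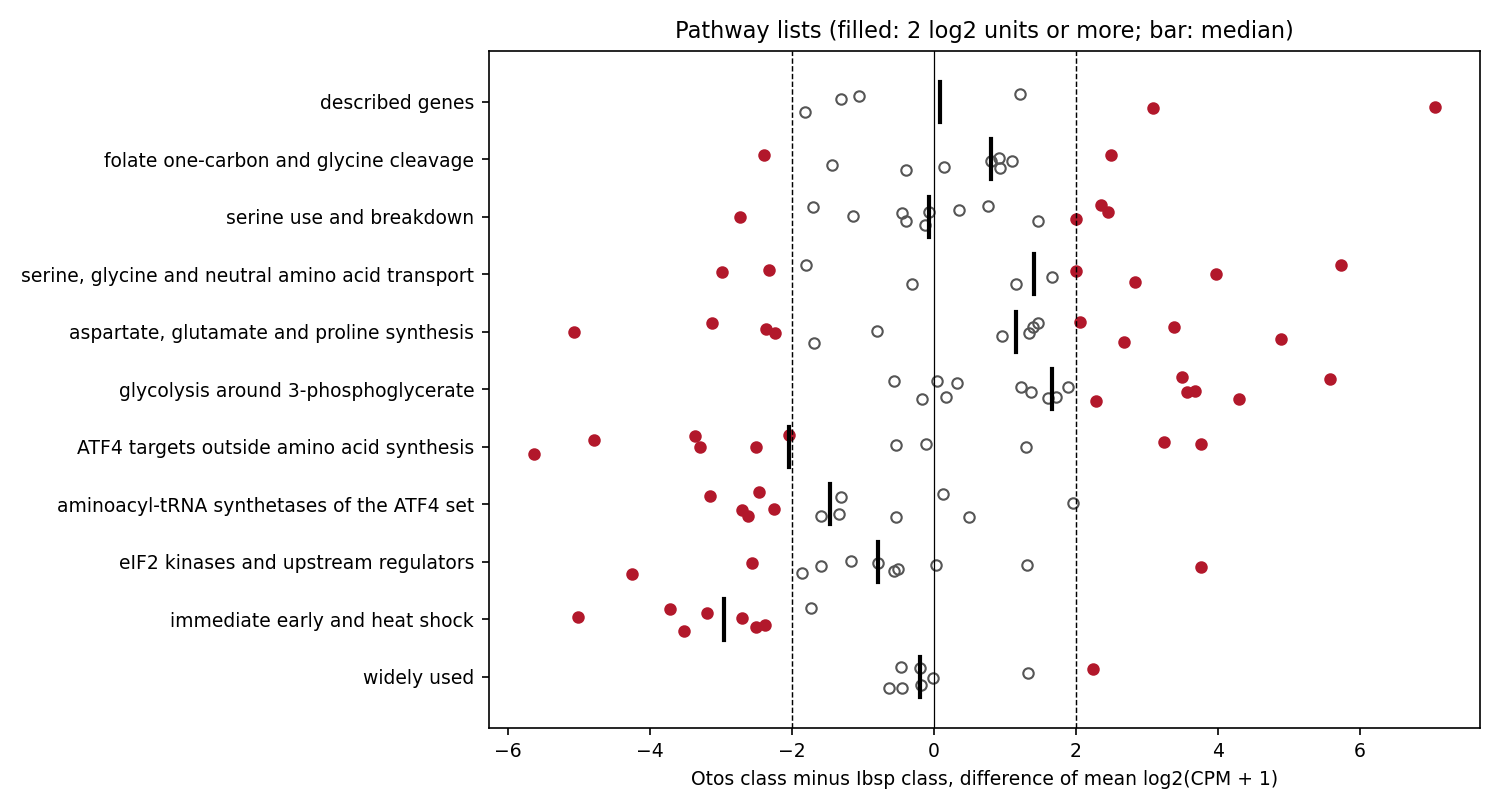
Differences of mean log2(CPM + 1) between Otos and Ibsp cells for each listed gene that entered, 1 row per list, with a bar at the list median and filled points at 2 log2 units or more. Glycolysis genes have a median of 1.66 and no gene below -2, and ATF4 targets outside amino acid synthesis a median of -2.03 with Pck2 at -5.63 and Cebpb at 3.77.

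In C1qb cells 5 of the 12 target genes that entered were higher and 4 lower than in all other cells, with a median of 1.46, beside 0.20 over all genes. Over all genes 18% were higher and 17% lower. Nupr1 differed by -5.27 and Ppp1r15a, which encodes a phosphatase subunit acting on eIF2, by 5.34. Among 12 synthetase genes 1 was higher, Nars (2.44) of asparaginyl-tRNA, and 3 were lower. Of 10 immediate early and heat shock genes 8 were higher, led by Jun (6.58) and Fos (5.67), with values of at least 2045 CPM for Fos in each C1qb cell. Atf3 (3.91) is in both this list and the target list and was counted as higher in each. Glycolysis genes had a median of -0.59, with 2 of 16 higher and 3 lower.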

How the data were processed

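Gene expression was measured by full-length RNA-seq in 46 single cells, per the labels' protocols with SMART-Seq v4 and ThruPLEX kits. STAR 2.7.3a, bcl2fastq 2 and the builds GRCm38 and mm10 are named in the submitters' processing notes. How reads were counted, with which annotation and on which strand, is not given in the sources used here. Deposited by the authors were CPM values, of which the listed genes hold 86.4% to 93.5% of 1000000 in each cell. Whole reads were recovered from the CPM steps, for 100% of the values to within 0.01 read or, for high values, within a share of 1e-06. A count test on them could not be run, since there is 1 labelled group with no animal named, and so no second sample. Columns without a sample numbered 0.

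Differences are of mean log2(CPM + 1), with a pseudocount of 1, which understates differences of low genes. Genes at 10 CPM or more in at least 25% of the cells of either class entered, and a difference of 2 or more was counted. SDs are over cells. Shares have exact Clopper-Pearson 95% intervals, which treat cells as independent draws. The cells come from 1 sample and are not replicates, so these intervals do not cover spread between animals. Pooled levels have exact Poisson 95% intervals, which without molecular identifiers cover the counting error of reads only. The 7 genes, the lists and the classes were chosen with earlier results of these data known. Named were the 7 genes, up to 4 genes per list with the largest difference between Otos and Ibsp cells past 2, up to 2 per list past 2 in C1qb cells, and the 5 genes most alike by Spearman's rank correlation. Mthfd2 and, in C1qb cells, Serinc3 were named outside this rule, after their values were seen. The counting code was tested on simulated data. Python 3.11.15, pandas 2.3.3 and scipy 1.17.1 were used. Promoter windows are from RefSeq on GRCm38.p6, and all 7 genes matched by symbol. Some marker genes are not reported here. Alternatives were another pseudocount, scaling, filter, class limits, medians, presence limits, thinned reads and leaving out each cell.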

Additional observations from a re-analysis of the deposited data

Results flagged for a closer look

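In 16 sets of values, 1 gene or the joint level within a class of 4 or 9 cells, 8 held a cell far from the others in its class, where chance gives about 1 in 20. Cells of 1 sample are not replicates, and the values are mostly near 0 or high, so that rate is only a guide. Of the 8, 2 are a single read against 0, and the joint level repeats Psat1 in the same cell. All values here are log2(CPM + 1).

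In Otos cells, cell 24 had Phgdh at 0, and the other 8 cells were at 5.81 to 8.31. Cell 26 had Psat1 at 0, and the other 8 were at 6.30 to 9.35. The same cell 26 had Asns at 5.99, with the other 8 at 0, and Shmt1 at 2.38 (4.19 CPM), with the others at 0 to 0.36. Otos cell 26 thus differed from its class in 3 of the 7 genes.

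In C1qb cells, cell 44 had Psat1 at 7.94, with the other 3 at 0 to 0.72. Its joint level of Phgdh, Psat1 and Psph was therefore 2.96, with the others at 0.20 to 0.43. Cell 43 had Shmt2 at 0, with the others at 0.26 to 0.28, and cell 45 had Asns at 0.27, with the others at 0. Each of these last values is at most 1 read per cell.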

How the results depend on the processing

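With 1 sample and no replicate, the settings below show how far the descriptions move, not how they would repeat. A pseudocount of 10 took the joint level difference between Otos and Ibsp cells to 2.38. It also lowered the counts of genes past 2 log2 units, higher and lower, to 337 and 298 between Otos and Ibsp cells, 143 and 98 between Otos and the remaining cells, 159 and 144 between Ibsp and the remaining cells, and 676 and 485 between C1qb and all other cells. The main counts were 986 and 1138, 671 and 477, 727 and 519, and 1716 and 1622. With medians over cells, 1323 genes were higher in Otos than in the remaining cells, and 1457 were higher and 798 lower in Ibsp than in the remaining cells. At a limit of 100 CPM, 1 Ibsp cell had Asns. The rank correlation of Psph with Atf4 was 0.50 and that of Asns with Atf4 -0.27 within Otos cells, where 1 cell had Asns, against -0.38 and 0.31 over all cells. Within Ibsp cells both signs were those over all cells. Within the remaining cells the sign of Psph with Atf4 was that over all cells. No remaining cell had Asns at 10 CPM or more, so the sign of Asns with Atf4 is not read there. The cause of these shifts was not tested.

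Leaving out each cell in turn gave joint level differences of 3.57 to 3.99 between Otos and Ibsp cells, 3.21 to 3.69 between Otos and the remaining cells, -0.56 to -0.10 between Ibsp and the remaining cells, and -2.61 to -1.69 between C1qb and all other cells. Over the joint levels, counts of genes, the presence of Psat1 in Otos and Asns in Ibsp cells and the median correlation, 103 values under other settings moved by less than the spread between cells, or counts by less than 1.5 times, and 13 moved by more. Leaving out cells with 3 markers of another type left 1 Otos and 1 Ibsp cell, so only the C1qb comparison kept a value, with a joint difference of -1.10. No paired analysis was possible because the labels give 1 group. After thinning to 3816760 reads per cell, which kept 42 cells, Psat1 was still present in 8 Otos cells and no Ibsp cell.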
